A study of Mus musculus with 6 samples.

Results

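The Kcnq1 domain is a cluster of imprinted genes on distal mouse chromosome 7, and 9 of its genes were followed here in mouse embryonic stem (ES) cells: Ascl2, Cd81, Tssc4, Kcnq1, Kcnq1ot1, Cdkn1c, Slc22a18, Phlda2 and Nap1l4. All probe sets carrying one of these names as their single gene symbol were taken, which gave 17 probe sets of the 45037 tested on the array and 9 of 18193 genes. The domain was chosen on the induction values of Ascl2 in these same arrays, so the differences between induced and uninduced cultures are given as a description and support nothing by themselves. Whether differences between clones also entered the choice is not recorded.

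The cells came from EBRTcH3 (EB3) ES cells, grown in medium with serum and LIF, the cytokine that keeps ES cells undifferentiated. Every culture carried a human GTF2IRD2 coding sequence with a FLAG tag, inserted at the ROSA26 locus under a promoter that tetracycline represses. The paper's RT-PCR still gave a low transgene signal in tetracycline. Among these clones that signal was highest in A3, both in tetracycline and 24 hours after its removal. Its part in the differences between clones was not tested. Uninduced cultures (0 hours) were kept in tetracycline, and induced cultures were sampled 24 hours after its removal. Clones A3, A4 and A5 each gave 1 uninduced and 1 induced culture, so there were 6 Affymetrix mouse expression arrays, 3 per group and 2 per clone. Each line is a single clone, 0 cultures lacked the transgene, and loss of tetracycline cannot be told apart from expression of the transgene. Values are log2 RMA summaries (normalized probe set intensities), so that a difference of 1 is 2-fold, and differences were taken within a probe set.

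In an imprinted gene the copies inherited from the mother and from the father are used unequally. The control region of this domain lies in an intron of Kcnq1 and holds the promoter of Kcnq1ot1, a long noncoding RNA. That region is methylated on the maternal chromosome, where Kcnq1ot1 is therefore off. On the paternal chromosome Kcnq1ot1 is transcribed and silences neighbouring genes on either side, so that Ascl2, Kcnq1, Cdkn1c, Slc22a18 and Phlda2 are expressed mainly from the maternal copy. Some of this imprinting, such as that of Cd81 and Tssc4, is described mainly in the placenta, and Nap1l4 is expressed largely from both copies. Ascl2 was grouped with the maternally expressed genes by its expressed copy alone, not by tissue. Whether any member is imprinted in these ES cells was not measured. The domain is known for growth control, above all in the placenta. The arrays do not tell the parental copies apart.

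Of the 9 genes 6 matched a promoter window of RefSeq (build GRCm38.p6), and the stretches of 250 bases before the start of 3 of them are shown, because Ascl2 carried the largest differences, Kcnq1ot1 starts at the control region and Phlda2 is a maternally expressed gene with small differences. Capitals mark the letters CCAAT and GGGCGG, read on both strands. No window was found for Cdkn1c, Kcnq1 or Nap1l4.
Ascl2 (chr7:142969265-142969514, minus strand): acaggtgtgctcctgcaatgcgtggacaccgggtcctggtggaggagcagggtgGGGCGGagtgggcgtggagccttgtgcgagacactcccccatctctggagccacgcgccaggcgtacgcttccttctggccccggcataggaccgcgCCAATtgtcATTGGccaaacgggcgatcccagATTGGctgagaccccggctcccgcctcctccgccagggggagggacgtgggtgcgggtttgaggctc
Kcnq1ot1 (chr7:143296548-143296797, minus strand): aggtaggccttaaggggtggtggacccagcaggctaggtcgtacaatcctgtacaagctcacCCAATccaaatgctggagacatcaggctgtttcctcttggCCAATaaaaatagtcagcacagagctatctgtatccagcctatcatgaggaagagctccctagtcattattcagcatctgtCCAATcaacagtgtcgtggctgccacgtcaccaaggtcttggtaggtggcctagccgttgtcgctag
Phlda2 (chr7:143502525-143502774, minus strand): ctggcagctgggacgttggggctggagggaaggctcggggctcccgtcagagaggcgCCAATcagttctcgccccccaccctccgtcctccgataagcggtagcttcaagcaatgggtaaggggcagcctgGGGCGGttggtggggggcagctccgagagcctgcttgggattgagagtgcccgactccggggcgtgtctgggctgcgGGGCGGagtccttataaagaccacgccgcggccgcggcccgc

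The Ascl2 stretch held 19 CG pairs, that of Phlda2 21 and that of Kcnq1ot1 5, against a median of 6 over 32851 windows of the same length. In the remaining members the count was 16 for Cd81, 17 for Tssc4 and 0 for Slc22a18. CCAAT occurred 3 times before Ascl2, 3 times before Kcnq1ot1 and once before Phlda2, and 33.8% of all windows held it. GGGCGG was found at 1 place before Ascl2, at 2 before Phlda2 and not before Kcnq1ot1, and 32.7% of all windows held it. None of the marked matches overlap. CAGCTG, a form of the E-box that basic helix-loop-helix factors bind, was in the windows of Phlda2 and Cd81 and in 4271 of the 32851 windows in all. The letters GGATTA, known from binding studies of GTF2IRD1, a relative of GTF2IRD2 in the TFII-I family, were in 0 of the 6 members' windows and in 6.3% of all. Such matches describe letters only and say nothing about binding.

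Ascl2, a basic helix-loop-helix transcription factor of the trophoblast, was higher after induction in each clone at each of its 3 probe sets, by 0.24 to 0.83. At the brightest one (1460514_s_at; the ending _s_at marks probes that match more than 1 transcript) the uninduced cultures of A3, A4 and A5 measured 7.61, 6.72 and 6.64, and the induced ones 7.85, 7.21 and 7.08. The induced array was above the uninduced array of the same clone each time, yet the groups overlapped, since uninduced A3 lay above induced A4 and A5. Group means were 6.99 ± 0.54 and 7.38 ± 0.41 (SD, n = 3), and the clones' own differences of 0.24, 0.49 and 0.44 averaged 0.39 ± 0.13 (SD, n = 3), or 1.31-fold. In bulk cultures, more cells with a transcript and more of it per cell cannot be told apart.

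The other Ascl2 probe sets gave larger values. At 1422396_s_at the uninduced cultures measured 6.94, 6.44 and 6.15 in A3, A4 and A5 and the induced cultures 7.55, 6.84 and 6.65, a mean difference of 0.51 ± 0.11 (SD of the clone differences, n = 3). At 1432018_at they measured 6.36, 5.33 and 5.04 uninduced and 6.89, 6.16 and 5.81 induced, which gave 0.71 ± 0.16, or 1.64-fold. The probe sets did not order the clones alike: A3 had the smallest difference at 2 of them (0.24 and 0.53) and the largest at 1422396_s_at (0.61). They measure a single gene and are not independent of each other.

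**Figure D1:**
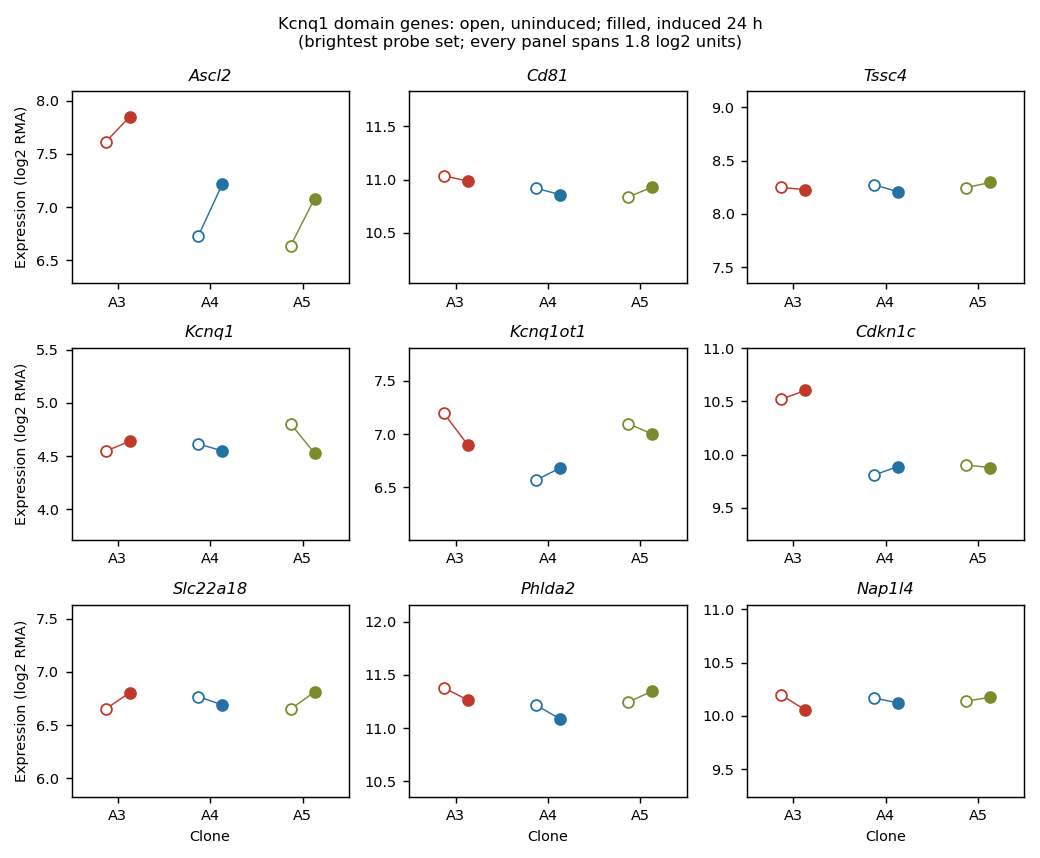
Expression (log2 RMA, y axis) of the brightest probe set of each domain gene in clones A3, A4 and A5 (x axis), with open circles for uninduced and filled circles for induced cultures, a line joining those of a clone, and the same span in every panel. Ascl2 stands higher in the induced culture of each clone and higher in A3 than in A4 and A5, Cdkn1c is near 10.56 in A3 and near 9.85 and 9.89 in A4 and A5, and Tssc4 and Nap1l4 are nearly flat.

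The remaining maternally expressed genes lay close to 0 on induction. Cdkn1c, an inhibitor of cyclin-dependent kinases that restrains growth, measured 10.52, 9.81 and 9.90 in uninduced A3, A4 and A5 and 10.60, 9.89 and 9.88 in the induced cultures. Its clone differences were 0.08, 0.08 and -0.02, a mean of 0.05 ± 0.06 (SD, n = 3). Phlda2, which restrains placental growth, measured 11.38, 11.22 and 11.24 uninduced and 11.27, 11.09 and 11.35 induced, a mean difference of -0.05 ± 0.13. It was lower in A3 and A4 and higher in A5.

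Slc22a18, a transporter of the organic cation family, differed by 0.08 ± 0.14 at its brighter probe set (1427531_a_at) and by 0.14 ± 0.15 at the dimmer (1417809_at). At the brighter clones A3, A4 and A5 gave 0.15, -0.08 and 0.16. Kcnq1, a subunit of a voltage-gated potassium channel, was at 4.53 to 4.81 on all arrays, below the array medians of 5.03 to 5.06, and its difference was -0.08 ± 0.19. Without detection calls a level this low cannot be told apart from background here.

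Kcnq1ot1, the paternally expressed noncoding RNA, has 6 probe sets on the array, of which only 1458161_at and 1457781_at reached a mean level of 5. At 1458161_at the uninduced cultures of A3, A4 and A5 measured 7.199, 6.567 and 7.098 and the induced ones 6.901, 6.681 and 6.999. Its differences were -0.30, 0.11 and -0.10, a mean of -0.09 ± 0.21 (SD, n = 3), with no common sign. At 1457781_at they were -0.37, 0.01 and -0.20, a mean of -0.19 ± 0.19. The 4 dim probe sets averaged -0.12 to -0.03, and the median over all 6 was -0.10. At both brighter probe sets Kcnq1ot1 and Ascl2 had opposite signs of difference in A3 and A5, and the same sign in A4.

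The members not grouped by a single expressed copy, Cd81, Tssc4 and Nap1l4, averaged -0.05 to -0.01. Cd81, a tetraspanin of the cell surface, differed by -0.01 ± 0.09, with -0.05, -0.06 and 0.09 in A3, A4 and A5. Tssc4, a factor of spliceosome assembly, differed by -0.01 ± 0.06, and its 6 values ran from 8.21 to 8.29. Nap1l4, a histone chaperone, differed by -0.05 ± 0.09. All 3 genes were lower in induced A3 and A4 and higher in induced A5.

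Set side by side, the 5 maternally expressed genes had a median difference of 0.09 for A3, -0.07 for A4 and 0.11 for A5, and of 0.05 over the clones. Without Ascl2 the median over the clones was 0.001, against -0.01 for Cd81, Tssc4 and Nap1l4 and -0.004 over all 45037 probe sets. In A3 4 of the 5 maternally expressed genes were higher on induction, in A4 2 and in A5 3. Of the 14 member probe sets other than those of Ascl2, which averaged -0.19 to 0.14, 0 had the same sign in all 3 clones. The 3 of Ascl2 were higher in all 3 clones. Over the whole array 25.9% of probe sets had 1 sign in all clones and 12.2% were higher in all of them.

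With limma (two-sided, Benjamini-Hochberg adjustment over all probe sets) 0 of the 17 member probe sets passed an adjusted p of 0.05 on induction, where 0% of all probe sets were called. At an unadjusted p under 0.05 there were 0 of 17 member probe sets and 1404 of 45037 in all. With the clone as a replicate block 0 passed, and an unadjusted p under 0.05 was reached by 3 of 17, those of Ascl2, and by 2597 of 45037 in all. The methods' t-test called 0, with 0 of 17 and 1681 of 45037 at an unadjusted p under 0.05. That contrast chose the domain, so nothing is read from these counts. Hybridisation spikes (mean level 10.05 to 10.07 uninduced and 10.09 to 10.23 induced) and poly-A spikes (6.06 to 6.58 and 6.51 to 6.91) were also higher in the induced array of each clone, and their part in the Ascl2 values was not tested.

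**Figure D2:**
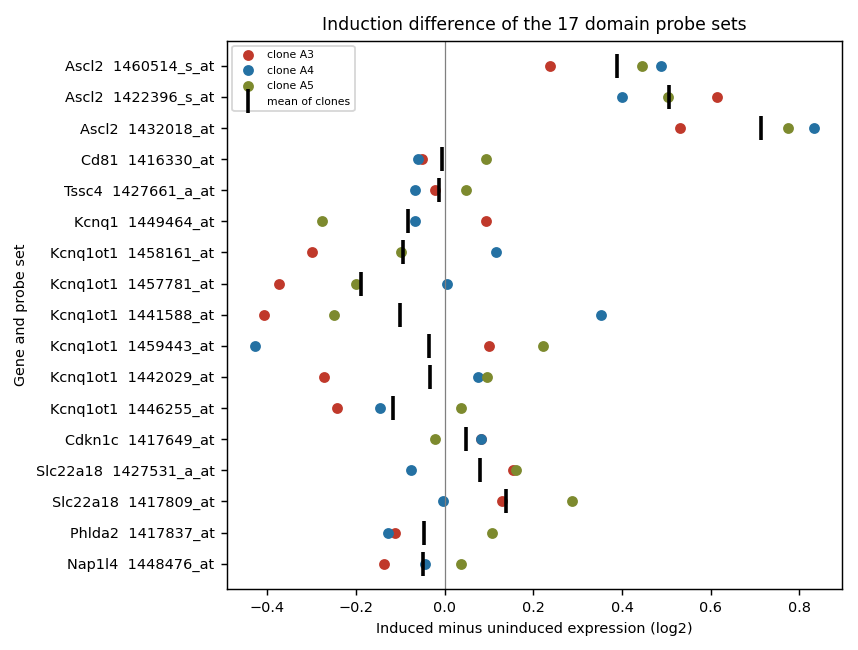
Difference in expression between the induced and the uninduced culture (log2, x axis) for the 17 probe sets in chromosomal order of their genes (y axis), as a point for each clone and a bar for the mean of the clones. The 3 Ascl2 probe sets have means of 0.39, 0.51 and 0.71 with every clone above 0, and the other 14 means lie between -0.19 and 0.14.

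The clones themselves differed in Ascl2 and Cdkn1c, which were both higher in clone A3. Over the arrays of a clone (n = 2), the brightest Ascl2 probe set averaged 7.73, 6.97 and 6.86 for A3, A4 and A5, so that A3 exceeded the mean of the others by 0.82, or 1.76-fold. At 1422396_s_at the clone means were 7.24, 6.64 and 6.40 (0.72, 1.65-fold) and at 1432018_at 6.62, 5.75 and 5.42 (1.04, 2.05-fold). Cdkn1c had means of 10.56, 9.85 and 9.89, a difference of 0.69, or 1.62-fold. Neither array of A3 overlapped with any array of A4 or A5 at the 3 Ascl2 probe sets or at Cdkn1c. How often such a separation occurs over all probe sets was not counted, so nothing is read from it.

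Of the 17 member probe sets 4 passed limma's F-test for a difference among the clones, taken with induction fitted alongside, and these were the 3 of Ascl2 and the 1 of Cdkn1c. The same test called 2.18% of all probe sets. Counted by gene at the brightest probe set, these calls are 2 of the 9 genes, where 3.09% of 18193 genes were called. Adjusted p over all probe sets in limma was 0.00627, 0.00764 and 0.00316 for Ascl2 1460514_s_at, 1422396_s_at and 1432018_at, and 0.00838 for Cdkn1c. In pairwise contrasts of that fit Cdkn1c was higher in A3 than in A4 by 0.71 ± 0.09 (SE, adjusted p = 0.00540 in limma) and than in A5 by 0.67 ± 0.09 (adjusted p = 0.00945). Ascl2 1460514_s_at was higher in A3 than in A4 by 0.76 ± 0.10 (SE, adjusted p = 0.00611 in limma) and than in A5 by 0.87 ± 0.10 (adjusted p = 0.00544). The same 4 member probe sets passed both contrasts, where A3 was called higher in 1.50% of all probe sets against A4 and 0.904% against A5. Between A4 and A5 0 of 17 passed, with 0.0511% called in all. There Ascl2 1460514_s_at differed by 0.11 ± 0.10 and Cdkn1c by -0.04 ± 0.09 (SE).

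These calls rest on A3. Without both A3 arrays 0 member probe sets passed, with an adjusted p in limma of 0.559 to 0.86 for the 3 of Ascl2 and 0.96 for Cdkn1c. That fit called 0.0577% of all probe sets, against 2.18% with all arrays. With 1 A3 array left out, calls fell among the members and over the whole array, and A3 was then a lone array. The loss of calls was thus not particular to the members. Without an induction term in the model 1 passed, Cdkn1c, where 2.17% of all probe sets were called. The Ascl2 probe sets had adjusted p of 0.0812 to 0.198 in limma there, in a model that leaves the difference on induction in the residual spread. Poly-A spikes were highest on the A3 arrays (6.58 and 6.91, against 6.06 to 6.57 in A4 and A5), while the signal for 18S ribosomal RNA ran from 7.42 to 11.57 without setting A3 apart. The part of either in the A3 values was not tested.

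No other member passed the clone term. Their 13 probe sets differed between A3 and the mean of A4 and A5 by -0.12 to 0.30, with adjusted p of at least 0.132 in limma's F-test. Phlda2 had clone means of 11.32, 11.15 and 11.30, and A3 exceeded A4 by 0.17 ± 0.09 (SE) and A5 by 0.03 ± 0.09. Slc22a18, which lies between Cdkn1c and Phlda2, had 6.73 in each clone at its brighter probe set. Tssc4 had 8.24, 8.24 and 8.27, and Nap1l4 10.13, 10.15 and 10.16. For Cd81 they were 11.01, 10.89 and 10.88.

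Kcnq1ot1 took another order, with A4 lowest at its brightest probe set (7.05, 6.62 and 7.05 over A3, A4 and A5). A3 exceeded A4 by 0.43 ± 0.11 (SE), and A3 and A5 differed by 0.001 ± 0.109. This missed the threshold (adjusted p = 0.132 in limma's F-test), and passed with an intensity trend in the variance (0.0315) and with dim probe sets (mean under 5) left out (0.0499). In the other settings tried it ran from 0.0975 to 0.999. At 1457781_at the means were 5.65, 5.43 and 5.65 (adjusted p = 0.452).

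Of 20 genes flanking or lying between the members 17 had a probe set with 1 symbol, 30 probe sets in all, and H19, Tnfrsf26 and Shank2 were not analysed here. The clone term called 1 of these 30 probe sets, where 2.18% of all probe sets were called. At the brightest probe set it called 0 of the 17 genes. The 1 call was in Tspan32, a tetraspanin gene that follows Ascl2 directly in chromosomal order among the genes listed. At 1418398_a_at Tspan32 measured 6.44 and 6.64 in uninduced and induced A3, 5.50 and 5.99 in A4 and 5.65 and 5.75 in A5, so A3 exceeded the mean of the others by 0.81, or 1.76-fold (adjusted p = 0.0104 in limma's F-test). It was also higher after induction in each clone, by 0.20, 0.48 and 0.11. Its other probe set, 1431289_at, measured 6.83 to 7.19, with A3 0.02 below the mean of the others by clone means of 6.95, 6.90 and 7.06, so the probe sets of Tspan32 disagree. The Tspan32 call was lost without both A3 arrays (adjusted p = 0.967 in limma's F-test), where 0.0577% of all probe sets were called.

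The other 29 neighbour probe sets had A3 differences of -0.37 to 0.47 and 0 passed the clone term (smallest adjusted p = 0.119 in limma). Th, the tyrosine hydroxylase gene on the far side of Ascl2, had clone means of 4.92, 4.46 and 4.45 at a level below the array medians (adjusted p = 0.157). Trpm5, a cation channel gene between Tssc4 and Kcnq1, had A3 differences of 0.04 to 0.14 over 3 probe sets. Beyond Nap1l4, Cars, the gene of cysteinyl-tRNA synthetase, had -0.06 and -0.01. On induction the 30 neighbour probe sets averaged -0.22 to 0.26, with 8 of the 17 genes higher and 9 lower at the brightest probe set, and 0 passed. The growth factor gene Igf2, in the adjoining imprinted domain, differed by 0.13 at its brighter probe set, Fadd, an adaptor of death receptors, by -0.08, and Lsp1 had the lowest value, -0.22.

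**Figure D3:**
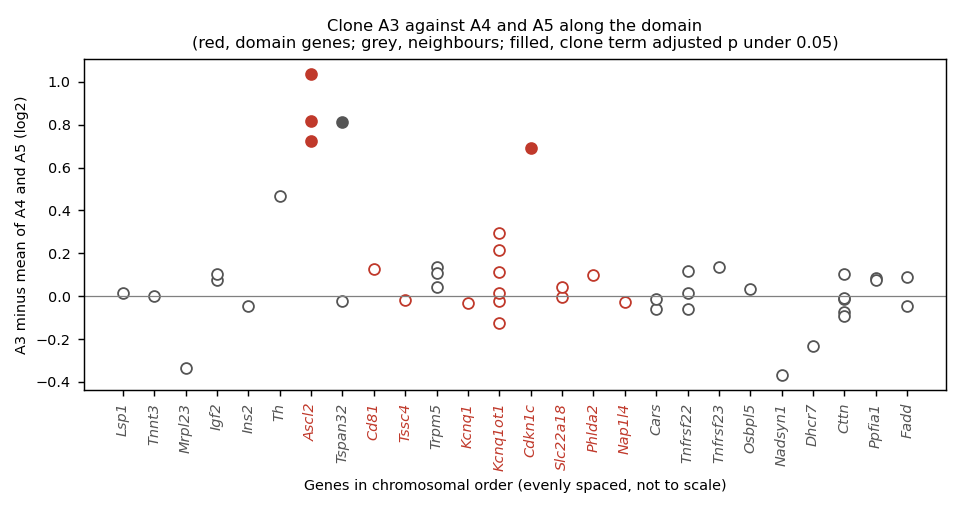
Difference between clone A3 and the mean of clones A4 and A5 (log2, y axis) for each probe set of the domain genes (red) and their neighbours (grey), in chromosomal order (x axis, evenly spaced and not to scale), with filled points where the clone term passed an adjusted p of 0.05. The filled points are the 3 probe sets of Ascl2 (0.72 to 1.04), 1 of Tspan32 (0.81) and that of Cdkn1c (0.69), and the open points of genes between and around them lie between -0.37 and 0.47.

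Profiles over the 6 arrays were compared at the brightest probe set of each gene. This choice left out Tspan32 1418398_a_at, the dimmer probe set of the gene next to Ascl2, which too was higher in A3 (0.81) and on induction (0.26). Whether it would stand among the nearest to Ascl2 was not tested. Among the probe sets compared, the nearest to Ascl2 and Cdkn1c came from other chromosomes, or had no position in the reference table. That absence of neighbours holds for the brightest probe sets only. Likeness was measured as the root mean square difference between profiles centred on their own mean, among 11926 other genes with a mean of at least 5. For Ascl2 1460514_s_at, whose own values spread by 0.438 (root mean square about the mean), the nearest were the photoreceptor cadherin gene Cdhr1 (0.102), Ankrd45 (0.128), the survival kinase gene Pim2 (0.140), the protease inhibitor gene Serpinb1a (0.148) and the galectin gene Lgals3 (0.153). Each was higher in A3 by 0.66 to 1.00 and averaged 0.14 to 0.27 higher on induction. For Cdkn1c, with a spread of 0.329, they were Eps8, an adaptor of receptor signalling (0.035), Slc46a3 (0.046), C730049O14Rik (0.048), the lysophosphatidic acid receptor gene Lpar1 (0.050) and Ak7 (0.052). All 5 were higher in A3, by 0.69 to 0.72, with differences of -0.02 to 0.07 on induction. The 6 points share clones, and all 10 of these genes are higher in both A3 arrays than their own mean. They were picked for likeness to the profiles of Ascl2 and Cdkn1c, so these shared differences follow from the selection.

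**Figure D4:**
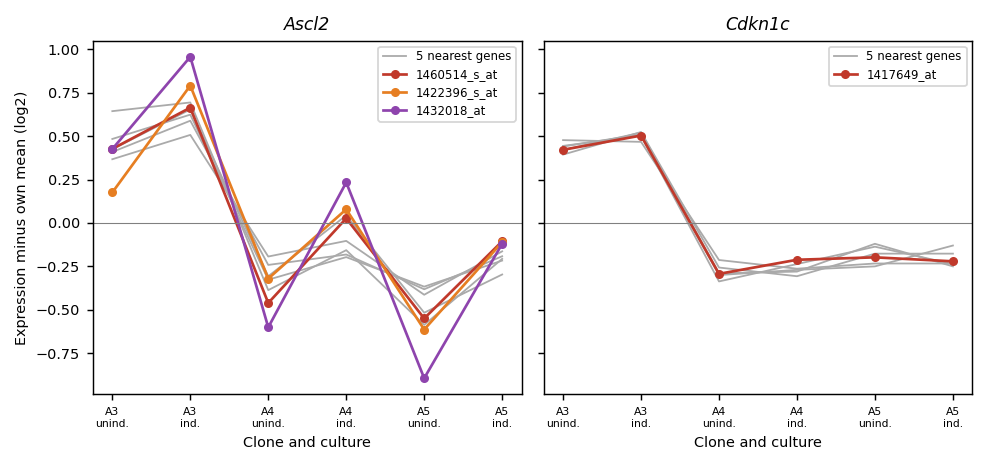
Expression minus its own mean over the 6 arrays (log2, y axis) in each culture (x axis; unind., uninduced; ind., induced) for the 3 probe sets of Ascl2 (left) and the probe set of Cdkn1c (right), with the 5 nearest genes in grey. Ascl2 steps down from A3 to the other clones and up from uninduced to induced within each clone, while Cdkn1c shows only the step between A3 and the other clones.

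Factors that silence the domain or keep its imprint were described from a list of 18 genes, all of them measured. On induction their median was 0.01, with 10 higher and 8 lower and 0 called. The largest differences at a mean level of at least 5 were those of the Polycomb gene Cbx7 (-0.12), the maintenance methyltransferase gene Dnmt1 (-0.10) and the zinc finger gene Zfp445 (0.06). The clone term called 1 of 18 at the brightest probe set, where 3.09% of 18193 genes were called. In the fit limited to a mean level of at least 5 the share was 8.24% of probe sets, which also stands beside the counts in the lists below. That gene was Dnmt3l, a cofactor of DNA methylation in germ cells and ES cells, which stood at 12.48 in A3 against 11.85 and 11.76 in A4 and A5 (adjusted p = 0.00965 in limma's F-test). In all, 15 of the 18 were higher in A3 than the mean of the others (median 0.07), against 46.0% of all genes. Dnmt3b was higher there by 0.42 and missed the threshold (adjusted p = 0.0536 in limma's F-test).

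Among 11 partners of Ascl2 and targets of Wnt signalling, of which Ascl2 is itself one, the median on induction was 0.02, with 7 higher and 0 called. Id2, which binds and blocks helix-loop-helix factors, differed by 0.30 (clones A3, A4 and A5 gave 0.63, 0.25 and 0.03). It was the 1 gene of 11 that the clone term called, where 3.09% of all genes were called. Its clone means were 8.80, 8.02 and 7.57 (adjusted p = 0.00884 in limma's F-test). Its relative Id3 differed by 0.155 and the E protein gene Tcf3 by -0.09. Of 14 Cdk inhibitors and G1 kinases or cyclins, 0 passed on induction (median 0.003), the largest differences being those of Ccne2 (0.175), Ccnd3 (-0.125) and Cdkn2d (0.11). The clone term called 2 of the 14, against the 3.09% of all genes. Both are D-type cyclins, which drive entry into S phase, and both were lower in A3: Ccnd2 with 7.53, 8.62 and 8.72 (adjusted p = 0.00358 in limma's F-test) and Ccnd3 with 10.60, 11.01 and 11.18 (adjusted p = 0.0436). The relatives of Cdkn1c, Cdkn1a and Cdkn1b, had A3 differences of -0.13 and -0.09 and did not pass.

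Other maternally expressed imprinted genes differed between clones in both directions. Of 12 listed, 11 were measured and 5 passed the clone term, against the 3.09% of all genes. In clone A3 the noncoding RNA genes of the Dlk1-Meg3 cluster were highest, namely Meg3 (9.82, against 9.16 in A4 and 9.46 in A5), Rian (9.73, 8.84 and 9.01) and Mirg (8.26, 7.44 and 7.59). Igf2r, a receptor that clears insulin-like growth factor, was lowest there (6.06, 6.99 and 7.03), and Grb10, a growth-restraining adaptor, was highest in A5 (10.78, 10.76 and 11.27). On induction the median of the 11 was -0.03, with 4 higher, 7 lower and 0 called, and the largest differences at a mean level of at least 5 were those of Rian (0.125), Grb10 (-0.12) and Meg3 (-0.04).

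Since Ascl2 is a gene of the trophoblast, markers of the cell types such a culture could hold were read beside it. All 10 ES cell markers were measured, and their mean level was 11.80 to 11.85 on every array. Pou5f1 stood at 12.56, 12.63 and 12.54 in A3, A4 and A5. The clone term called 1 of them, Fgf4, which was highest in A3 (10.16, 9.65 and 9.69). Beside the counts in these marker lists stands the share of 3.09% called over all genes. In the fit limited to a mean level of at least 5, 8.24% of probe sets were called. Of 16 trophoblast markers 14 were measured, with a mean level of 5.53 to 5.61 in A3, 5.85 to 5.88 in A4 and 5.76 to 5.78 in A5, lowest in the clone where Ascl2 was highest. The part of such cells in the values of Ascl2 was not tested. Only 3 of the 14 were higher in A3 than the mean of the other clones: Fgfr2 by 0.41, Ets2 by 0.10 and Gata3 by 0.06. The 4 that passed the clone term, Eomes, Tfap2c, Krt18 and Plet1, were lower there by 0.56 to 0.95. On induction 7 trophoblast markers were higher and 7 lower, with a median of -0.01. Cdx2, the defining factor of the lineage, stayed below the array medians (4.63, 4.77 and 4.86), and the RMA values of the placental markers Tpbpa and Gata3 were near 3 on this scale (2.97 to 3.09 as clone means). Other trophoblast markers lay above the array medians, such as Tfap2c (mean level 8.95), Ets2 (7.89) and Krt8 (7.29). The mean level of primitive endoderm markers was 5.22 to 5.53 over the arrays, that of fibroblast and feeder cell markers 4.92 to 4.97 and that of mesoderm markers 4.66 to 4.78. The clone term called 2 of 9 (Dab2 and Lama1), 0 of 9 and 0 of 5 of their genes.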

How the data were processed

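Total RNA of each culture was hybridized to 1 array. The authors ran RMA in Bioconductor's affy package, which corrects background, equalizes the arrays by quantiles and summarizes each probe set, and deposited the log2 result. Versions, and which arrays were normalized together, are not given in the sources used here. The members, lists and tests were chosen with earlier results of these data known.

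Probe sets were named by the platform's gene table. All 45037 probe sets other than 64 manufacturer's controls were tested in limma 3.58.1 (R 4.3.3; lmFit and eBayes), two-sided, at a Benjamini-Hochberg adjusted p of 0.05. Induction was compared without a block, taking the methods' t-test as unpaired although the pairing is not given there, and with the clone as a replicate block. The arrays of a clone deviated together (r across probe sets 0.524, 0.376 and 0.210 in A3, A4 and A5, against -0.407 to 0.0689 between clones), so the clones pair the arrays. The clone term was tested with induction in the model. The number of arrays limits the precision, and p-values reflect the spread among these cultures alone.

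The genes named are all member probe sets and, from each list, up to 3 members at a mean of at least 5 with the largest absolute difference and the 5 nearest genes for Ascl2 and Cdkn1c. List members past the clone term, Dnmt3b, cell type markers and single neighbours were picked for naming once their values were known. The brightest probe set stood for a gene in the lists. Promoter sequences are those of RefSeq (GRCm38.p6); coordinates are given for sequences only, since the build behind the array's gene table is not given. Alternatives were a replicate block, the t-test, an intensity trend, a filter on means under 5, renewed quantile normalization, array medians taken off, other probe sets, and arrays or clones left out.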

Additional observations from a re-analysis of the deposited data

How the results depend on the processing

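On induction, 0 member probe sets were called in the comparison without a block and in all 14 alternatives, among them the replicate block (0). For the clone term 4 were called, and 4 or 5 in 9 of 13 alternatives. It was 1 without an induction term, where 2.17% of all probe sets were called, and 0 without both A3 arrays, where 0.0577% were. With 1 A3 array left out it fell, as did the calls over all probe sets. The clone term called 2.18% of all probe sets, and 5.86% with an intensity trend (2641) and 8.24% at a mean of at least 5 (1885 of 22874), against 980. With an array left out the lone array of its clone is assumed to vary like the others. The induction difference of Ascl2 at its brightest probe set (0.389) was 0.536 over all 3 probe sets. With arrays or clones left out it was 0.155 (without induced A3) to 0.700 (without uninduced A3) and did not change sign. The same settings gave -0.193 (without induced A3) to 0.269 (without uninduced A3) for Cdkn1c and -0.077 to 0.118 for the median of the maternally expressed genes, so both change sign. In these settings the groups no longer hold the same clones. With whole clones left out, a choice made after the data were seen, Ascl2 gave 0.340 to 0.465, Cdkn1c 0.029 to 0.082 and the maternally expressed genes 0.029 to 0.039. Renewed quantile normalization and array medians taken off moved no value by as much as the spread between clones.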
